A study of Mus musculus with 2 samples.

Results

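Proteasome genes were compared between B cells of NOD mice that carried a human AIRE transgene and B cells of non-transgenic NOD mice. They are the genes whose symbols begin with Psma, Psmb, Psmc, Psmd, Psme, Psmf or Psmg and a digit, and 49 such genes with 103 probe sets were found among 18193 named genes with 34945 probe sets. The transgene, carried by 1 mouse line, puts human AIRE under the control of an MHC class II promoter, which works in B cells and also in other antigen-presenting cells. AIRE is the regulator through which thymic epithelium expresses genes of other tissues. Both groups share the NOD background, which is prone to autoimmune diabetes, an age of 8 weeks, and a gate for cells without Thy1 and CD11c and with B220. Each group was 1 Affymetrix array with RNA of 2 mice, so no difference has a replicate check, no test was possible and every ratio describes these 2 arrays. The probe set of mouse Aire lay under the filter, at an intensity of 89.7 in transgenic and 86.9 in non-transgenic cells (log2 ratio 0.05). Whether it reads human AIRE is unknown, so it is no check of the labels.

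The proteasome degrades proteins that carry ubiquitin chains and makes most of the peptides that MHC class I molecules present. Its 20S core is a barrel of alpha and beta rings, with the cutting sites on 3 of the beta subunits. A 19S cap, built from a base with ATPases and a lid, recognises ubiquitin, removes it and threads the substrate into the barrel. In cells of the immune system, and after interferon gamma, the catalytic subunits Psmb5, Psmb6 and Psmb7 are replaced by Psmb8, Psmb9 and Psmb10 to form the immunoproteasome. Interferon also induces Psme1 and Psme2, which form the PA28 activator.

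Intensities below were aligned by the array medians, and ratios are log2 of transgenic over non-transgenic. A gene is represented by its probe set of highest mean level, and it passed the filter when its higher value reached 98.8, the pooled median. Of the 49 genes, 47 passed, all of them on both arrays. Over all 10778 genes that passed, the median log2 ratio was 0.19 with an interquartile range of -0.15 to 0.48. Positions relative to that median are therefore given beside the ratios. Levels of different genes are not compared, since each probe set has its own response.

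Most proteasome genes were slightly higher on the transgenic array. The 4 measured genes that interferon is known to induce lay on both sides of level as reported, 2 above and 2 below. That split depended on the scaling. Psmb9 and Psmb10, the 2 above, were at -0.08 and 0.01 after quantile normalization. They were at -0.10 and -0.01 after loess and at -0.07 and 0.04 without scaling. The 47 genes had a median log2 ratio of 0.34, which is 0.15 above the median of all genes, and 33 of them (70.2%) lay above it. Higher by any size were 38 of the 47, against 64.9% of all genes. At least 1.5-fold higher were 9 of the 47 (19.1%), against a background of 17.4% of all genes. At least 1.5-fold lower were 2 (4.26%), against 8.42% of all genes. As reported, the share of higher genes is near the background and is not a result about the proteasome. That count also depended on the processing: it was 2 after quantile normalization, when 11.5% of all genes passed, 2 after loess (11.02%), and 3 without scaling (9.83%). It was 3 of 47 when the probe sets of a gene were averaged (11.7% of all genes), 3 of the 44 then above the filter with the probe set of median ratio (10.1%), and 5 of 40 without probe sets named _a_at, _s_at or _x_at (16.6%). These endings mark probe sets common to several transcripts or open to cross-hybridisation. As the count fell, so did the share over all genes, but the share of the members lay under it in each of these settings. The counts are small, the difference was not tested, and 2 of these settings leave fewer members above the filter. Past 2-fold was 1 gene, Psmc4, where 4.43% of all genes were as much higher and 3.19% as much lower. The values nearest the 1.5-fold limit were those of Psmc6 (0.59) and Psmd3 (-0.69) inside it, and of Psmd4 (0.56) and Psmd8 (-0.35) outside it.

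**Figure D1:**
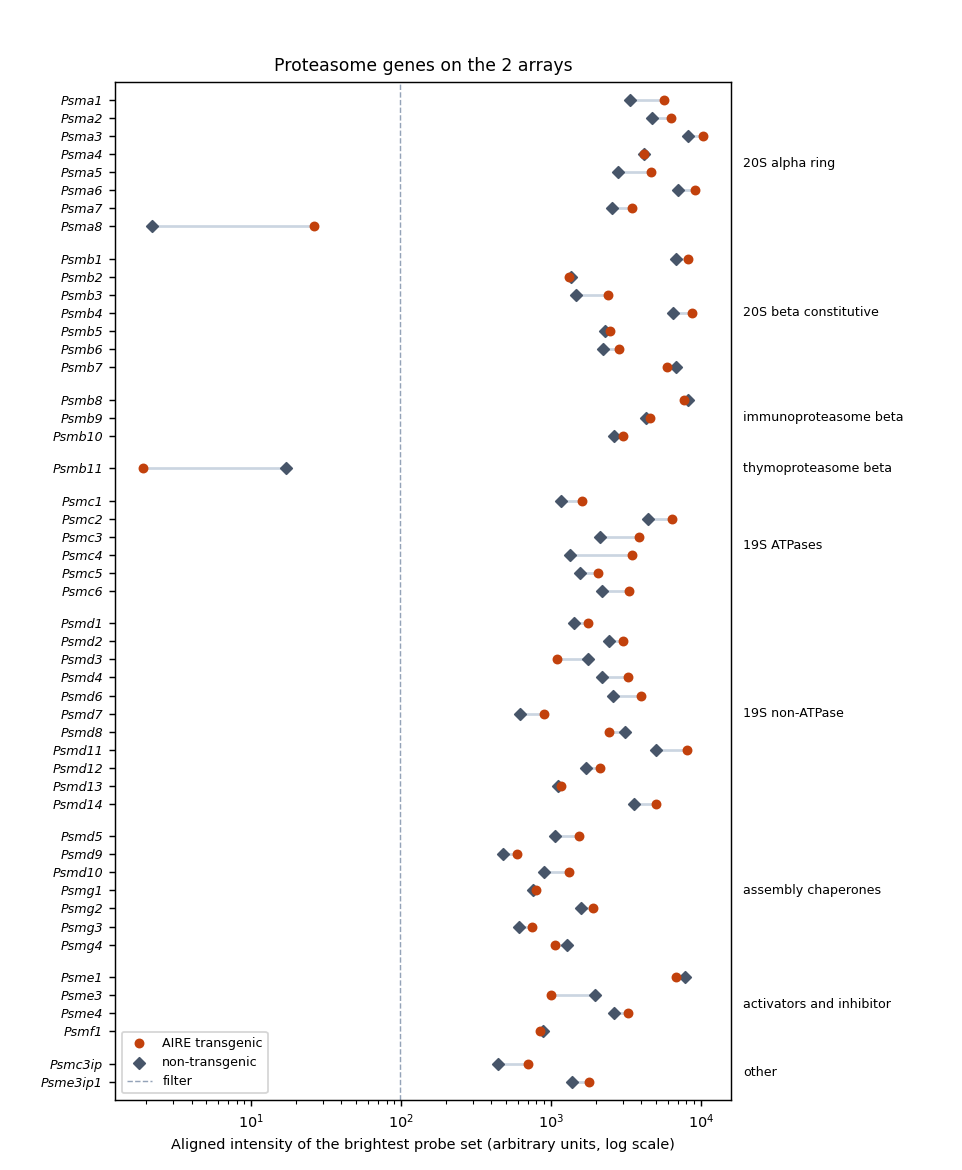
Aligned intensity (arbitrary units, log scale) of each of the 49 proteasome genes on the AIRE transgenic array (circles) and the non-transgenic array (diamonds), by role, with the filter at 98.8 as a dashed line. Psma8 and Psmb11 lie under the filter on both arrays, and Psmc4 has the widest gap among the other 47 genes.

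The catalytic genes of the immunoproteasome were nearly level between the arrays. Psmb8, which replaces the chymotrypsin-like site, was at 7758 in transgenic and 8188 in non-transgenic cells (-0.08). Psmb9, which replaces the caspase-like site, was at 4562 in transgenic and 4269 in non-transgenic cells (0.10). Psmb10, which replaces the trypsin-like site, was at 3040.2 in transgenic and 2639.9 in non-transgenic cells (0.20). Of the activator, Psme1 was at 6868 in transgenic and 7829 in non-transgenic cells (-0.19). Psme2 has no value here, because its 1 probe set also carries a second symbol, Psme2b. Only Psmb10 of these 4 genes lay above the median of all genes. None of the 4 was 1.5-fold apart, where 17.4% of all genes were as much higher and 8.42% as much lower. Psmb8 has a second, dimmer probe set, named _x_at, that went further, at 559 in transgenic and 285 in non-transgenic cells (0.97). Its probe sets thus differ by 1.05 in log2 ratio, and the dimmer one reads 1.96-fold higher.

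The constitutive catalytic subunits did not move together either. Psmb5, the chymotrypsin-like site of the standard proteasome, was at 2471 in transgenic and 2289.6 in non-transgenic cells (0.11). Psmb6, with the caspase-like site, was at 2834 in transgenic and 2220.0 in non-transgenic cells (0.35). Psmb7, with the trypsin-like site, was at 5958 in transgenic and 6864 in non-transgenic cells (-0.20). The ratio of Psmb8 minus that of its counterpart Psmb5 was -0.19, and that of Psmb9 minus Psmb6 was -0.26. For Psmb10 minus Psmb7 the difference ran the other way, at 0.41. The exchange partners thus shifted in no common direction. The Psmb8 difference turned to 0.34 with the mean of its probe sets, both of which pass the filter.

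Set against all 31 constitutive genes of the core and cap, the 4 interferon-induced genes had a median log2 ratio of 0.01, against 0.41 for the constitutive ones, a difference of -0.40. Relative to the median of all genes, the interferon-induced median lay at -0.18 and the constitutive median at 0.23 on the log2 scale. Above the median of all genes were 1 of the 4 interferon-induced and 24 of the 31 constitutive genes. Of the constitutive genes, 24 had a ratio above that of every interferon-induced gene, 4 lay among them and 3 lay below. The difference was -0.38 after quantile normalization and -0.39 after loess, so these scalings changed it little. It shrank to -0.11 when the probe sets of a gene were averaged. The interferon-induced median then rose to 0.15, and the constitutive median fell to 0.26. The rise comes from the dimmer set of Psmb8 alone, since Psmb9, Psmb10 and Psme1 have 1 probe set each. The difference was -0.24 without the _a_at, _s_at and _x_at sets, which leaves out Psmb8.

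**Figure D2:**
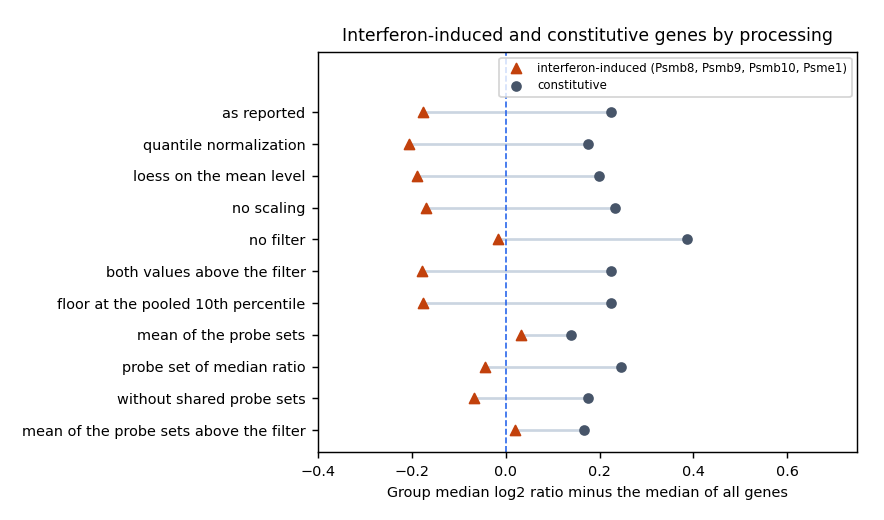
Median log2 ratio of the interferon-induced (triangles) and the constitutive proteasome genes (circles), each minus the median of all genes (dashed line at 0), as reported and under the 10 alternatives. The interferon-induced genes are the lower group in every row, with the narrowest gap for the mean of the probe sets (-0.11). The rows for no scaling, no filter, both values above the filter and the other floor cannot change the gap. The row without shared probe sets lacks Psmb8.

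Other genes of the interferon pathway show what else stood on these arrays. Mx2, an antiviral effector of type I interferon, was at 437 in transgenic and 33.1 in non-transgenic cells. Its non-transgenic value lay under the filter, so it is given as at least 4.42-fold higher, taken against the filter value. Ifit1, another such effector, was at 319 in transgenic and, also under the filter, 58.3 in non-transgenic cells, which is at least 3.23-fold higher by the same bound, and both were named after their values were seen. Among genes of interferon gamma signalling, 8 of 10 on the list passed the filter, with a median of 0.26. Of the 8, 1 was at least 1.5-fold higher, against 17.4% of all genes, and none was as much lower, against 8.42%. That gene was Nlrc5, the transactivator of class I genes, also named after its value was seen, at 1394 in transgenic and 914 in non-transgenic cells (0.61). Jak1, a kinase of the receptor, was at 9194 in transgenic and 11716 in non-transgenic cells (-0.35), with its probe sets running from -1.25 to -0.18. Irf2, a regulatory factor, was at 2278 in transgenic and 3136 in non-transgenic cells (-0.46).

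Genes that bring proteasome products to MHC class I molecules were also near level. All 10 on the list passed the filter, and their median was 0.10, below that of all genes. None was 1.5-fold apart, where 17.4% of all genes were as much higher and 8.42% as much lower. The light chain B2m was at 34653 in transgenic and 39112 in non-transgenic cells (-0.17). The chaperone Calr was at 13186 in transgenic and 11747 in non-transgenic cells (0.17), with its probe sets running from -0.22 to 0.17. The peptide transporter gene Tap1 had the highest ratio of the list, at 2259 in transgenic and 1636 in non-transgenic cells (0.47), and its partner Tap2 was at 2154 in transgenic and 1816 in non-transgenic cells (0.25). These transporter genes were named after their values were seen, because in the RefSeq annotation Psmb9, Tap1, Psmb8 and Tap2 follow each other on chromosome 17 with no protein-coding gene between them. Psmb9 and Tap1 are read in opposite directions from the 225 bases that separate their starts, with Psmb9 at 0.10 and Tap1 at 0.47.

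Promoters of Psmb9, Psmb8 and Psmb10 and of the counterparts Psmb5 and Psmb6 are printed here because induced and constitutive genes differ in known control, and those of Psmb3 and Psmc4 because these genes were among the higher ones. RefSeq windows of 300 bases (250 before to 50 after a start, build GRCm38.p6) were found for 41 of the 49 genes, and Psmb7 was among the other 8. Capitals mark any of 5 motifs, searched on both strands: the interferon-stimulated response element (2 GAAA runs with 2 bases of any kind between them), the interferon gamma site GAS TTCNNNGAA, the core of the antioxidant response element TGACNNNGC, an NF-kB site (GGGA and CC with 4 bases of any kind between them) and the CCAAT box. Each stretch ends at the base before the start and is given on the strand of the gene, and for Psmb9 and Tap1 on the strand of Tap1.
Psmb9-Tap1, chr17:34187331-34187555, plus strand: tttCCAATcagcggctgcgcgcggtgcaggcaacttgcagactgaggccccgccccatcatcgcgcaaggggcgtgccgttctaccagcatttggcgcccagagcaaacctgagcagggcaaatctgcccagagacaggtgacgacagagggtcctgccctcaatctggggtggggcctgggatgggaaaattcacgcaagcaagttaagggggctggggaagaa
Psmb8, chr17:34198075-34198194, plus strand: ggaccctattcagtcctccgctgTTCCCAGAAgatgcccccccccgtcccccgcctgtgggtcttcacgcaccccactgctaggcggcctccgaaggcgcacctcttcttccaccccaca
Psmb10, chr8:105938393-105938512, minus strand: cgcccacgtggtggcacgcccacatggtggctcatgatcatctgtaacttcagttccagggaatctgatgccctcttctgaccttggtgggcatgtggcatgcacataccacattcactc
Psmb5, chr14:54617996-54618115, minus strand: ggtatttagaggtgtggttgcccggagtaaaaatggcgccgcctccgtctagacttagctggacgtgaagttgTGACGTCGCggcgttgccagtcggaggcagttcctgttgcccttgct
Psmb6, chr11:70525237-70525356, plus strand: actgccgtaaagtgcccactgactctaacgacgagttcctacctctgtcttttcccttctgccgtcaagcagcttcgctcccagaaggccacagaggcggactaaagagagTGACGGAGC
Psmb3, chr11:97703254-97703433, plus strand: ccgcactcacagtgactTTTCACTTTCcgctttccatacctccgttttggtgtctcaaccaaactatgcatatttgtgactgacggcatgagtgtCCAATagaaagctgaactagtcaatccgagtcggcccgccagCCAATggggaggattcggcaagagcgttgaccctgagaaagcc
Psmc4, chr7:28050093-28050212, minus strand: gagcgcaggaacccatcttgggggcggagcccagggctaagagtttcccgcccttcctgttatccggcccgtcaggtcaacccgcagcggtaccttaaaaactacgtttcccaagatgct

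The window of Psmb8 holds the GAS letters, that of Psmb10 none of the 5 motifs, and those of Psmb5 and Psmb6 the antioxidant core. Psmb3, which was higher, holds the interferon-stimulated letters and 2 CCAAT boxes in the printed stretch, and Psmc4, with the highest ratio, none of the 5 motifs in its window. The interferon-stimulated letters were in windows of 5 of the 41 genes (12.2%), namely Psmb3, Psmd4, Psmd9, Psme1 and Psmg4, and in 3.99% of all 27025 genes of the table. The GAS letters, which read alike on both strands, were in 3 (7.32%), against 9.55% of all genes. The antioxidant core was in 6 (14.6%), against 14.0%, the NF-kB letters in 11 (26.8%), against 22.9%, and the CCAAT box in 16 (39.0%), against 41.1%. A match describes these letters only. The ratios of the 5 genes with the interferon-stimulated letters ran from 0.72 for Psmb3 to -0.27 for Psmg4, so these letters did not go with 1 direction.

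The alpha ring, whose subunits form the gate of the barrel, was mostly higher on the transgenic array. The 7 of its 8 genes that passed the filter had a median of 0.41, with 6 above the median of all genes. Of the 7, 2 were at least 1.5-fold higher, against 17.4% of all genes, and none was as much lower, against 8.42%. Psma1 was at 5666 in transgenic and 3357 in non-transgenic cells (0.75), the highest ratio of the ring. Psma1's 3 other probe sets above the filter were at 0.54, -0.15 and -0.22, and the gene turned to -0.15 with the probe set of median ratio. Psma5 was at 4671 in transgenic and 2795 in non-transgenic cells (0.74), and its second set above the filter was at 0.56. Psma5 was under the 1.5-fold limit after quantile normalization (0.55), after loess (0.53) and without scaling (0.58). Both probe sets of Psma7 were higher, the brighter at 3456 in transgenic and 2569.8 in non-transgenic cells (0.43) and the other at 0.72. Psma2 had 6292 in transgenic and 4729 in non-transgenic cells (0.41). Psma6 had 9119.9 in transgenic and 6982 in non-transgenic cells (0.39), with its 3 other sets between 0.03 and 0.33. Psma3 had 10347 in transgenic and 8197 in non-transgenic cells (0.34), with its second set at -0.35. The lowest of the ring was Psma4, level at 4195 in transgenic and 4148 in non-transgenic cells (0.02). Psma8, a subunit of the testis, lay under the filter at 26.3 in transgenic and 2.18 in non-transgenic cells, and no ratio is read from it.

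The 7 constitutive beta genes had a median of 0.28, with 4 above the median of all genes. Among them 1 was at least 1.5-fold higher, against 17.4% of all genes. That gene was Psmb3, a structural subunit, at 2405 in transgenic and 1459 in non-transgenic cells (0.72), and its second probe set was at 0.83. Psmb3 was under the 1.5-fold limit after quantile normalization (0.52), after loess (0.50) and without scaling (0.56). Psmb4, known from yeast as the last subunit to join its ring, was at 8732 in transgenic and 6528 in non-transgenic cells (0.42), and its second set had the same ratio of 0.42. Psmb1 was at 8236 in transgenic and 6783 in non-transgenic cells (0.28), with other sets at 0.26 and -0.12. Psmb2 was at 1313 in transgenic and 1355 in non-transgenic cells (-0.04). The lowest of the ring was Psmb7, given above. Psmb11, the beta subunit of the thymoproteasome of cortical thymic epithelium, lay under the floor of 25.1 on both arrays, at 1.91 in transgenic and 17.1 in non-transgenic cells.

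The 6 ATPases of the 19S base were the role group with the highest median, 0.56, and all 6 lay above the median of all genes. These subunits form the ring that unfolds substrates. At least 1.5-fold higher were 3 of them, against 17.4% of all genes. Psmc4 was at 3452 in transgenic and 1348 in non-transgenic cells (1.36, 2.56-fold), a ratio above that of 98.2% of all genes. Its second probe set was at 1896 in transgenic and 1571 in non-transgenic cells (0.27), so the sets of Psmc4 differ by 1.09, and only the brighter one shows the larger difference. Psmc3, with 1 probe set, was at 3865 in transgenic and 2137 in non-transgenic cells (0.85). It stayed past 1.5-fold after quantile normalization (0.65), after loess (0.64) and without scaling (0.69). The other alternatives left the value of this single probe set unchanged. Psmc6 was at 3288 in transgenic and 2177 in non-transgenic cells (0.59), with other sets at 0.75 and 0.09. It was under the 1.5-fold limit after quantile normalization (0.40), after loess (0.38) and without scaling (0.43). Psmc2 was at 6425 in transgenic and 4458 in non-transgenic cells (0.53), with other sets at 0.37 and, dimmer, at -0.53. Psmc1 was at 1608 in transgenic and 1170.0 in non-transgenic cells (0.46). The lowest of the ring was Psmc5, at 2067 in transgenic and 1562 in non-transgenic cells (0.40).

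The 11 non-ATPase genes of the cap varied more, from -0.69 to 0.68, with a median of 0.33 and 8 above the median of all genes. At least 1.5-fold higher were 2 of the 11, both genes of the lid, against 17.4% of all genes. Psmd11, whose human counterpart is known to promote assembly of the cap with the core, was at 8121 in transgenic and 5052 in non-transgenic cells (0.68). It has 6 probe sets above the filter, of which 2 were near 0.7, 2 near level at 0.02 and 0.08, 1 at 0.35 and the dimmest at -1.72, with 46.0 in transgenic cells, under the filter, and 151 in non-transgenic cells. Psmd6 was at 3994 in transgenic and 2606 in non-transgenic cells (0.62), and its second set was at 0.49. Psmd11 and Psmd6 were under the 1.5-fold limit after quantile normalization (0.50 and 0.42), loess (0.52 and 0.40) and without scaling (0.52 and 0.45). In the other direction, 1 of the 11 was as much lower, against 8.42% of all genes. That was Psmd3 of the lid, at 1097 in transgenic and 1768 in non-transgenic cells (-0.69). Psmd3 was at -0.87 after quantile normalization, -0.90 after loess and -0.85 without scaling, and the other alternatives left its value unchanged. Psmd8 of the lid was also lower, at 2453 in transgenic and 3130.3 in non-transgenic cells (-0.35). Psmd3 and Psmd8 have 1 probe set each.

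Ubiquitin is handled in the cap by receptors and a deubiquitinase, and Psmd4 and Psmd14 are such genes. Psmd4, a receptor, was at 3252 in transgenic and 2205 in non-transgenic cells (0.56), with other sets at 0.23 and -0.01. Psmd14, the deubiquitinase of the lid, was at 4978 in transgenic and 3575 in non-transgenic cells (0.48). Psmd2, a scaffold of the base, was at 3036 in transgenic and 2418 in non-transgenic cells (0.33). Psmd1, the other scaffold, was at 1757 in transgenic and 1429.5 in non-transgenic cells (0.30). Of the remaining lid genes, Psmd7 was at 895 in transgenic and 624 in non-transgenic cells (0.52), with a dim set at -0.42. Psmd12 was at 2126 in transgenic and 1710.1 in non-transgenic cells (0.31). Psmd13 was at 1172 in transgenic and 1107 in non-transgenic cells (0.08), with 3 other sets between -0.32 and 0.25. When the cap was divided by structure, a grouping added after seeing the data, the 9 base genes had a median of 0.53 and ran from 0.30 upward. The 8 lid genes had a median of 0.40 and held both lower genes.

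**Figure D3:**
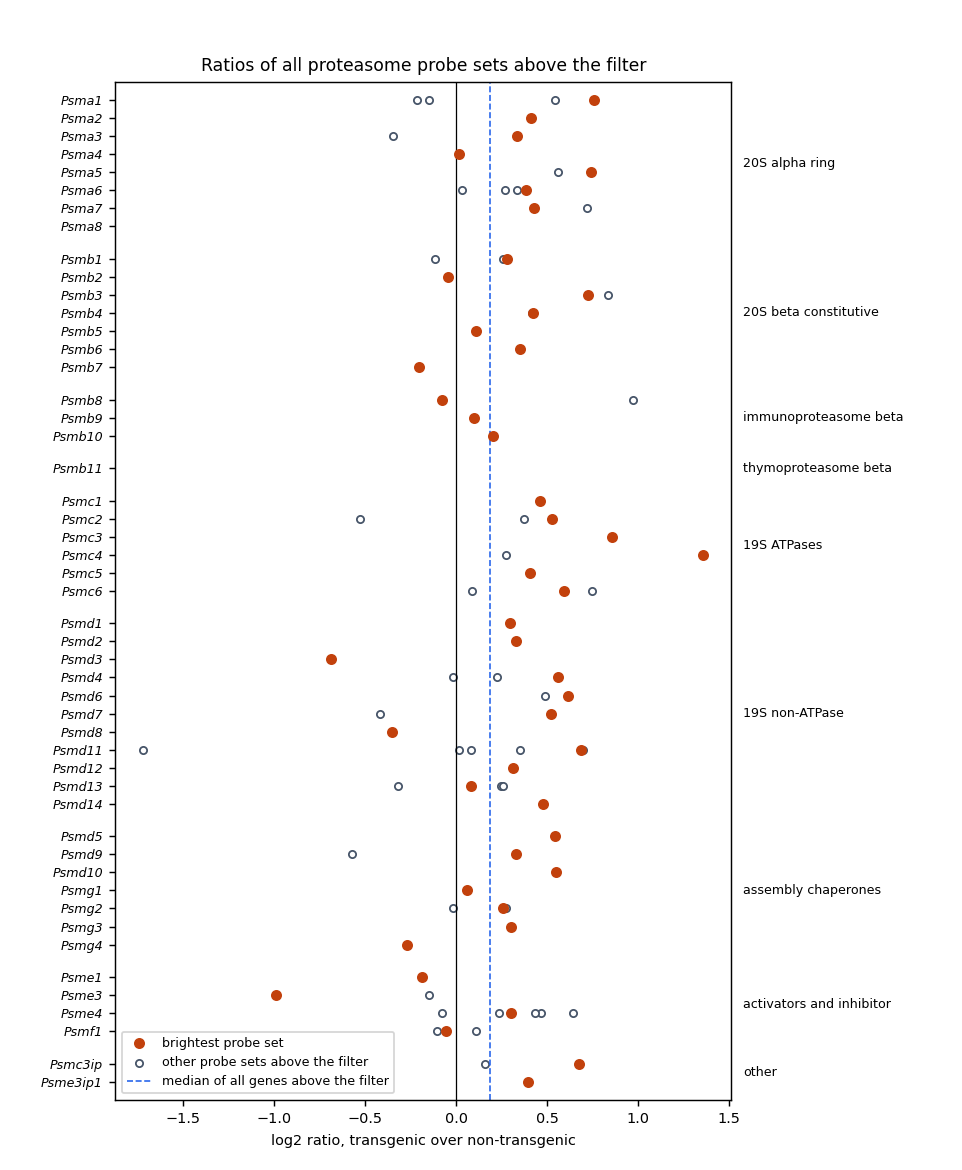
Log2 ratio (transgenic over non-transgenic) of the 90 proteasome probe sets above the filter, by gene and role, with the probe set of highest mean level filled, the others open, and the median of all genes (0.19) dashed. All ATPase genes lie to the right of that line by their filled points. Psmb8, Psmc2, Psmc4 and Psmd11 each have an open point more than 1 from the filled one.

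Assembly chaperones, which bring the subunits together and leave the finished particle, had a median of 0.30 over 7 genes. None was 1.5-fold apart, where 17.4% of all genes were as much higher and 8.42% as much lower. Highest was Psmd10, known as gankyrin, at 1314 in transgenic and 898 in non-transgenic cells (0.55), and Psmd5 was close to it at 1539 in transgenic and 1058 in non-transgenic cells (0.54). Psmd9 was at 597 in transgenic and 476 in non-transgenic cells (0.33), with a dimmer set at -0.57. Of the genes that assemble the core, Psmg3 was at 749 in transgenic and 607 in non-transgenic cells (0.30), and Psmg2 at 1892 in transgenic and 1581 in non-transgenic cells (0.26). Psmg1, the partner of Psmg2 in a dimer, was at 788 in transgenic and 756 in non-transgenic cells (0.06). Psmg4, which pairs with Psmg3, was the lowest, at 1063 in transgenic and 1280.1 in non-transgenic cells (-0.27).

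The activators and the inhibitor that bind the ends of the core had a median of -0.12 over 4 genes. On the transgenic array 3 of the 4 were lower, where 64.9% of all genes were higher by any size. Psme3, the nuclear activator PA28 gamma, was at 998 in transgenic and 1978 in non-transgenic cells (-0.99), 1.98-fold lower and the lowest ratio of all 47 genes. Its other set above the filter was at 791 in transgenic and 878 in non-transgenic cells (-0.15), and the mean of both was -0.57, an alternative added after seeing the data. Its dimmest set, with 57.5 in transgenic and 14.8 in non-transgenic cells, reached the filter on neither array and brought the mean of all 3 to 0.020. The size of the difference therefore rests on 1 probe set. Psmf1, the inhibitor PI31, was at 848 in transgenic and 881 in non-transgenic cells (-0.05). Psme4, the nuclear activator PA200, was at 3244 in transgenic and 2629.5 in non-transgenic cells (0.30), with 4 of its 5 other sets also above 0. The interferon-induced Psme1 belongs to this group and is given above.

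The symbol rule also takes in 2 genes that are not parts of the particle. Psmc3ip, which acts in meiotic recombination, was at 707 in transgenic and 442 in non-transgenic cells (0.68), with its second set at 0.16, and it is 1 of the 9 genes past 1.5-fold. Psme3ip1, a partner of Psme3, was at 1806 in transgenic and 1372 in non-transgenic cells (0.40).

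Agreement between probe sets of a gene bears on how closely any of these ratios can be read. In 23 proteasome genes more than 1 probe set passed the filter, and the range of their log2 ratios had a median of 0.58, the same as over 5172 such genes on the array. In 36 of the 47 genes the log2 ratio itself was smaller in size than that range. It was over 1 in 4 of the 23 (17.4%), namely Psmb8, Psmc2, Psmc4 and Psmd11, against 22.3% of all such genes. Probe sets of 1 gene lay on both sides of 0 in 13 of the 23 (56.5%), against 49.7%. The brightest set had a higher ratio than the median of the others in 16 of 23, and the same held in 64.0% of all such genes. Counted by probe set, an alternative added after seeing the data, 15 of the 90 sets that passed were 1.5-fold or more higher (16.7%), against 16.9% of all probe sets. Lower by as much were 3 of the 90, against 10.5%, and the median of the 90 was 0.29, against 0.15.

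**Figure D4:**
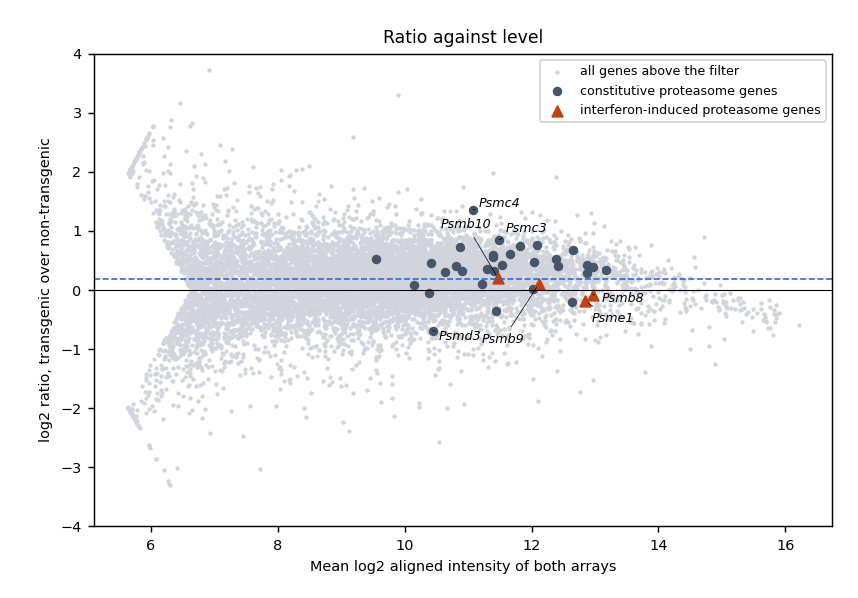
Log2 ratio (transgenic over non-transgenic) against the mean log2 intensity for all 10778 genes above the filter (grey), the 31 constitutive (circles) and 4 interferon-induced proteasome genes (triangles), with the median of all genes dashed. The proteasome genes lie inside the cloud of all genes, which bends below the dashed line at the highest intensities.

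Partners and regulators of the proteasome were examined next. Of 13 partner genes, 11 were named and passed the filter, with a median of 0.34 and 10 above the median of all genes. Of the 11, 1 was at least 1.5-fold higher, against 17.4% of all genes. That was Txnl1, a thioredoxin-like protein of the cap, named after its value was seen, at 5416 in transgenic and 3189 in non-transgenic cells (0.76), with its probe sets running from -0.22 to 0.94. Zfand5, which stimulates the 26S particle, was at 7319 in transgenic and 5790.4 in non-transgenic cells (0.34). The probe sets of Zfand5 ran from -0.98 to 0.42. Sem1, a small subunit of the lid, was at 6118 in transgenic and 4252 in non-transgenic cells (0.53). Transcriptional regulators of proteasome genes had a median of 0.18 over 6. None of the 6 was 1.5-fold apart, where 17.4% of all genes were as much higher and 8.42% as much lower. Nfe2l2, a factor that acts through the antioxidant element, was at 2504 in transgenic and 1846 in non-transgenic cells (0.44). Ngly1, the enzyme that removes glycans from Nfe2l1, was at 2179.9 in transgenic and 1782 in non-transgenic cells (0.29). Nfe2l1 itself, the factor of the rebound response to proteasome loss, was named after its value was seen and was at 1659 in transgenic and 1315 in non-transgenic cells (0.34).

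Genes of ubiquitin and substrate delivery had a median of 0.17 over 14, with 2 at least 1.5-fold higher, against 17.4% of all genes. These were the shuttle genes Ubqln2, at 5143 in transgenic and 2719 in non-transgenic cells (0.92), and Ubqln1, at 5677 in transgenic and 3257 in non-transgenic cells (0.80), both named after their values were seen. Their other probe sets reached down to -0.67 and -0.08. Ube2d3, a conjugating enzyme, was at 11784 in transgenic and 10817 in non-transgenic cells (0.12), with its probe sets running from -0.16 to 0.65. Vcp, the unfoldase that delivers substrates, was at 6351 in transgenic and 5571 in non-transgenic cells (0.19).

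Other large complexes of the cytosol and mitochondria were set beside the proteasome, as families added after seeing the data. The 8 chaperonin genes (Tcp1 and Cct genes) had a median of 0.47 and all lay above the median of all genes. Respiratory chain and ATP synthase genes had a median of 0.28 over 80 above the filter, and cytosolic ribosomal protein genes one of -0.29 over 46. The constitutive proteasome median of 0.41 thus lay between those of the chaperonin and the respiratory chain as reported. That order did not hold under 2 alternatives: with averaged probe sets the constitutive median (0.26) was under that of the respiratory chain (0.30), and without the _a_at, _s_at and _x_at sets it (0.340) was above that of the chaperonin (0.332). The differences between families were not tested.

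Markers of cell types moved between these arrays as well. Of all genes that passed the filter, 64.9% were higher in transgenic cells by any size. All 7 B cell markers with a value, Cd79a and Ms4a1 among them, were lower in transgenic cells, with summed intensities of 114611 in transgenic and 180178 in non-transgenic cells. Cd79a was at 19609 in transgenic and 46825 in non-transgenic cells. Of 7 natural killer markers, 6 were higher and 5 lay above the median of all genes. Their sums were 6262 in transgenic and 3827 in non-transgenic cells. Klre1 was at 470 in transgenic and 192 in non-transgenic cells, and Gzma at 2771 in transgenic and 1369 in non-transgenic cells. Summed T cell markers were at 1102 in transgenic and 1148 in non-transgenic cells, with Cd4 at 155 in transgenic cells and under the filter at 38.4 in non-transgenic cells, and Thy1 at 101 in transgenic and 208 in non-transgenic cells. Monocyte and macrophage markers summed to 11727 in transgenic and 10556 in non-transgenic cells, but 4 of the 6 were lower and their median log2 ratio was -0.06. Csf1r carries that higher sum, at 4090 in transgenic and 2584 in non-transgenic cells. Plasmacytoid dendritic cell markers summed to 25989 in transgenic and 25843 in non-transgenic cells, and conventional dendritic cell markers to 1252 in transgenic and 1017 in non-transgenic cells. Neutrophil markers summed to 9004 in transgenic and 8756 in non-transgenic cells, sums set mostly by S100a8 and S100a9. Both were slightly lower, S100a8 at 3913 in transgenic and 4393 in non-transgenic cells and S100a9 at 3604 in transgenic and 3704 in non-transgenic cells. The median log2 ratio of the 5 above the filter was 0.98, the highest of these marker lists. Ngp was at 1011 in transgenic and 371 in non-transgenic cells, Camp at 365 in transgenic and 185 in non-transgenic cells, and Mpo at 106 in transgenic and, under the filter, 50.7 in non-transgenic cells. Plasma cell markers summed to 30502 in transgenic and 34471 in non-transgenic cells. The red cell markers Hba-a1 and Alas2 lay under the floor on both arrays. The part of cell composition in the proteasome ratios was not tested, and fewer cells of a type and less RNA per cell cannot be told apart here.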

How the data were processed

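RNA of sorted B cells was hybridised to 1 Affymetrix mouse array per group, after labelling of fragmented cDNA with biotin, per the labels' protocols. The deposited table holds a linear intensity for each probe set and array. How the authors derived it is not given in the sources used here. Without the highest and lowest 2% of probe sets, its mean is 500.0 on each array.

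Control probe sets (64) were left out, and 34945 of the other 45037 had a single symbol in GEO's platform annotation, updated through Entrez identifiers. The array medians, 93.1 for transgenic and 104.3 for non-transgenic cells, were aligned by factors of 1.06 and 0.947. Intensities under the pooled 25th percentile (25.1) were raised to it before log2. Each gene took its probe set of highest mean level, and passed the filter where at least 1 array reached 98.8, the pooled median. This left 10778 of 18193 genes.

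All members are accounted for. The naming rule required values for the interferon-induced genes with their constitutive counterparts, members past 1.5-fold, the extremes of each role group, members under the filter and those whose probe sets differed by over 1 in log2 ratio, and most other members were given beside them. From other lists the rule took members past 2-fold, or else the 2 of highest level; genes outside it are named as such, and Csf1r, Camp, S100a8 and S100a9 were named after their values were seen. The members and lists were chosen with earlier results of these data known. With 1 array a group no test was possible, and precision is limited by the number of arrays. The steps were tested on simulated arrays. The work used matplotlib 3.10.9, statsmodels 0.14.6, scipy 1.17.1, pandas 2.3.3 and numpy 2.4.6 under Python 3.11.15.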

Additional observations from a re-analysis of the deposited data

How the results depend on the processing

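With 1 array per group, no alternative can stand in for a replicate. No paired analysis was possible because each group has a single array and the labels number no replicates. A median was taken as moved when it changed by more than 0.1.

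The median of all 10778 genes, 0.19 as reported, was 0.05 after quantile normalization, 0.03 after loess on the mean level and 0.01 without scaling. Under the same 3 scalings the median of all proteasome genes was 0.19, 0.18 and 0.17, that of the interferon-induced genes -0.16, -0.16 and -0.15, and that of the constitutive genes 0.22, 0.23 and 0.25. Averaging the probe sets of a gene gave 0.15 for the interferon-induced and 0.26 for the constitutive genes, a difference of -0.11. Averaging only the sets above the filter, an alternative added after seeing the data, gave 0.15, 0.30 and a difference of -0.15. The probe set of median ratio gave 0.30 for the constitutive genes and a difference of -0.29, and leaving out probe sets named _a_at, _s_at or _x_at gave a difference of -0.24. The difference was below 0 under each of the 10 alternatives. Of these, no scaling, no filter, both values above the filter and the other floor cannot change the difference. The constitutive median lay above the all-gene median under each of the 10.

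Genes at least 1.5-fold higher numbered 2 after quantile normalization, 2 after loess, 3 without scaling and 3 with averaged probe sets. They numbered 4 with those above the filter averaged, where 13.8% of all genes passed. With the set of median ratio they numbered 3, and without the _a_at, _s_at and _x_at sets 5. The shares of all genes under the other settings are given with the first count above. After quantile normalization and after loess the higher genes were Psmc3 and Psmc4, and without scaling Psma1 as well. The other genes 1.5-fold higher as reported were under that limit with these scalings. Genes at least 1.5-fold lower numbered 1 with averaged probe sets (8.21% of all genes). They numbered 1 with those above the filter averaged (9.24%) and 1 with the set of median ratio (12.2%). Among single genes past 1.5-fold, Psma1 turned to -0.15 with the probe set of median ratio and Psme3 to 0.020 when its probe sets were averaged. For Psme3 the turn comes from its set under the filter, since the mean of the other 2 was -0.57, and for Psma1 from that rule taking another of its sets.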
